A study of Mus musculus with 3 samples.

Results

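Cd209a-positive cells of the classical monocyte gate were compared with Cd209a-negative cells of the same gate, matched on sequencing depth, in mouse blood. The gate was set on raw counts of unique molecular identifiers (UMIs, each a counted molecule). A cell needed 200 or more detected genes, 1 or more Csf1r UMI, and a sum of Ccr2, F13a1, Fn1 and Chil3 of 5 or more that also exceeded the sum of Ace, Treml4, Cd300e and Adgre4. It could hold at most 1 UMI of Flt3 and Zbtb46 together, 2 of Cd79a, Cd79b and Ms4a1, and 1 of Cd3e, Cd3d and Cd3g. Of 22688 cells with 200 or more genes, 606 passed the gate, and 62 of these held at least 1 Cd209a UMI. Each was paired with 1 Cd209a-negative cell of the same library and nearest UMI total, out of 544. The cells were thus chosen by their measured Cd209a and gate gene counts, and the values of those genes are given as a description.

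The cells were leukocytes from peripheral blood of untreated male mice aged 8, 9 and 10 weeks, with 1 library at each age (replicates 1, 2 and 3). The labels used here name no strain, and they do not say that the libraries came from separate animals, so p-values measure only the spread between these samples. Erythrocytes were lysed, cells were sorted with DAPI and Draq5, and transcripts were counted with the fixed-RNA probe kit of 10x Genomics. The libraries held 19591648 to 45718031 UMIs, with medians of 3086 to 3539 per barcode, and pairs of libraries shared 48 to 101 cell barcodes.

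CD209a is a C-type lectin of the DC-SIGN family, which binds glycans on pathogens and other cells. Mouse blood monocytes are known as classical cells, which enter tissues, and patrolling cells, which scan the vessel wall and need Nr4a1. MHC class II molecules show peptides from captured material to CD4+ T cells. Their genes are switched on by the coactivator CIITA, which sits on promoters through factors that bind conserved boxes, among them a CCAAT-type box bound by NF-Y.

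Promoters of MHC class II genes are shown because H2-Aa and Ciita are markers of these cells and the class II genes are described first below. RefSeq promoters on GRCm38.p6, 250 bases before to 50 after the start, were matched for 13 of the 17 genes of the class II list, that is all but H2-Ab1, Cd74, Ciita and Rfxap. The word GATTGG or its reverse complement CCAATC, searched on both strands, was in a window of 10 of the 13 genes and in 16.1% of all 32851 promoters. H2-DMa and Lgmn had more than 1 window, so the count of genes and the share of promoters are unlike units. Capitals mark the word below, and a match is a description of letters only. H2-Aa is shown as the marker gene, H2-Eb1 as the class II gene with the largest fold, and H2-DMb1 as a class II gene past the test. Of the other class II genes past the test with a promoter, Ifi30 had 0 matches. H2-DMa had 0 in 1 window and a match 199 bases before the start in another. The word begins 49, 60 and 62 bases before the start of H2-Aa (chr17:34287774-34288073, minus strand), H2-Eb1 (chr17:34305617-34305916, plus strand) and H2-DMb1 (chr17:34152941-34153240, plus strand).
H2-Aa: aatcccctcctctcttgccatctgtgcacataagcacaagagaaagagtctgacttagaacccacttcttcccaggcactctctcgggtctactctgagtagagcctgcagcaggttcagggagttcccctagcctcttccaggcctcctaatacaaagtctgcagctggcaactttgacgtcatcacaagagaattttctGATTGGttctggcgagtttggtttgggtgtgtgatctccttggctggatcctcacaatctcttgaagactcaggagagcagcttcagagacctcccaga
H2-Eb1: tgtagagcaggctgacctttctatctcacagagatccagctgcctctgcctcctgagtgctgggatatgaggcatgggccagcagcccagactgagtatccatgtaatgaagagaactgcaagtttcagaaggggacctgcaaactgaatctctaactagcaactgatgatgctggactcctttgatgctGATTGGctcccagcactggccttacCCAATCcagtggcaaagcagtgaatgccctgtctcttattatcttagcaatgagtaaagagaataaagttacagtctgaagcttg
H2-DMb1: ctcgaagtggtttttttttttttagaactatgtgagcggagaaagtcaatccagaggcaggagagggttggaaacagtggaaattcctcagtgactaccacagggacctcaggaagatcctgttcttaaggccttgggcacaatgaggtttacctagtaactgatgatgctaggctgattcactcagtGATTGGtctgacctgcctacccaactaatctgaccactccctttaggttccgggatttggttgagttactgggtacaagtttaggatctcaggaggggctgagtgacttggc

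Cd209a was found in 32 of 342 gated cells in replicate 1 (9.36%, 95% exact binomial interval 6.49 to 12.95%), in 13 of 153 in replicate 2 (8.50%, 4.60 to 14.1%) and in 17 of 111 in replicate 3 (15.3%, 9.18 to 23.4%). The mean was 11.1% ± 3.71 (SD, n = 3), and the intervals, which cover counting error only, overlapped. With every cell thinned to 3000 UMIs the mean share was 7.27% ± 1.02 (SD, n = 3). The unthinned share was 0.245% in B-cell-gated cells (23 of 9379), 0.140% in T-cell-gated cells (7 of 4983) and 0.434% in patrolling-gated monocytes (3 of 691). Median depth was lower in the B gate (3174 UMIs) and the T gate (3856 UMIs) than in the positive cells (8699.5 UMIs). Among cells with both Flt3 and Zbtb46, markers of dendritic cells, 32 of 38 were positive (84.2%), that is 25 of 28, 6 of 7 and 1 of 3 in replicates 1, 2 and 3. Of the 62 positive cells, 16 held a single Cd209a UMI and 46 held 2 or more, with a median of 3 and a maximum of 27. The related lectins Cd209b to Cd209g had 0 to 7 UMIs each over the 62 cells.

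The genes of the gate, which both arms carry by its construction, are given first. Ccr2, the chemokine receptor for exit from marrow, stood at 2008, 2735 and 1665 CPM (UMI counts per unit of library size, on the usual CPM scale, with edgeR's TMM factors) in replicates 1, 2 and 3 of the positive arm and at 1860.5, 2555 and 1945 in the negative arm. F13a1, which encodes a clotting factor subunit, was at 2523, 2576 and 1866 against 2396, 2826 and 2293 CPM. Both genes overlapped between the arms. Fn1, fibronectin, was at 5005, 5326 and 4372 CPM in the positive arm against 6503, 8325 and 6727, with no overlap. Chil3, a chitinase-like protein of classical monocytes, was at 372, 405 and 309 CPM in the positive arm against 2971, 2674 and 4093, with no overlap, and 49 of 62 positive cells (79.0%) held none of it against 13 of 62 negatives (21.0%). Since these genes are part of the gate, this is a description.

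The gate allowed at most 1 UMI of Flt3 and Zbtb46, and the arms differed in how many cells held it. A Flt3 or Zbtb46 UMI was present in 28 of 62 positive cells (45.2%) and in 7 of 62 matched negatives (11.3%). In the positive arm that was 18 of 32 cells in replicate 1, 6 of 13 in replicate 2 and 4 of 17 in replicate 3. Lyz2, the lysozyme gene that monocytes express strongly, was under 20 UMIs in 9 positive cells and in 0 negatives. The 10 markers of type 2 conventional dendritic cells summed to 325 to 599 CPM in the positive arm and 108 to 153 in the negative arm. Of these, 4 could be tested (Clec10a, Kmo, Cd7 and Dpp4) and were higher, but they had 0 to 20 UMIs in the negative arm and reached the filter on low counts through the positive arm, so their number is no support. Among the untested markers, Clec4a4 had 3 UMIs against 13 and Ltb 8 against 11. The 7 markers of type 1 conventional dendritic cells summed to 46.7 to 115 against 7.80 to 21.9 CPM. Among them Clec9a had 42 UMIs against 0, Rab7b had 5 against 8, and Xcr1, Cadm1 and Itgae were at 0 in both arms. The part of such cells in the results was not tested by itself, so results are given beside fits on other choices of cells, of which the fits matched on Flt3 and Zbtb46 and restricted on Lyz2 were added after the data were seen.

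The quasi-likelihood test of edgeR, blocked on library, covered 3869 genes, and a gene was called where its p, adjusted by Benjamini and Hochberg, was under 0.05. In the positive arm 60 genes were higher (1.55% of those tested) and 78 lower (2.02%), 3.57% together, with a median log2 fold over all genes of -0.001. At an unadjusted p under 0.05 there were 482 genes. Without replicate 2 the calls dropped to 3 higher and 1 lower, which were Cd74, H2-Eb1, Tagln2 and Cd177, and without replicate 1 to 21 and 20, without replicate 3 to 44 and 66. Apart from Cd74, Tagln2 and Cd177, every call named below missed the threshold without replicate 2. Genes low in 1 arm could reach the filter through the other arm, so counts over the tested members of a list describe those members only. Under DESeq2's Wald test 9 genes were higher and 9 lower, and 34 of the 46 named genes it tested lost their call. All called genes kept their direction in each of the 17 alternative fits that tested them.

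**Figure D1:**
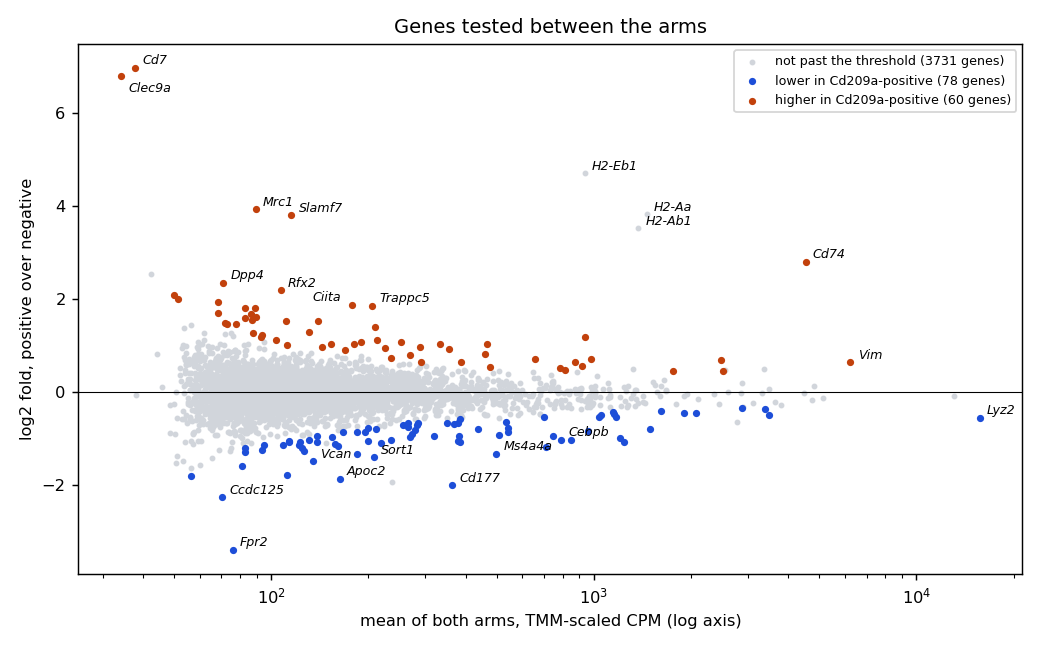
Log2 fold of Cd209a-positive over matched Cd209a-negative cells (vertical) against the mean level of both arms in TMM-scaled CPM (horizontal, log axis), 1 point per gene tested, gate genes left out. The 60 higher genes are orange, the 78 lower genes blue, and the class II genes H2-Aa, H2-Ab1 and H2-Eb1 lie high without passing the test. The heights of Cd7 and Clec9a, which had 0 UMIs in the negative arm, depend on the prior count of the fit.

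MHC class II genes made up several of the higher genes in the Cd209a-positive cells. Of the 17 genes of the list, 10 could be tested, 5 were higher and none lower (Cd74, Ciita, H2-DMb1, H2-DMa and Ifi30), with a median log2 fold of 1.70 against -0.001 over all genes. The libraries of the arms did not overlap in 9 of the 10, against 16.7% of all genes tested. Of all genes tested, 1.55% were higher and 2.02% lower. H2-Aa and Ciita are markers of these cells. H2-Eb1 had 39 UMIs in the negative arm and could reach the filter on low counts through the positive arm. These counts and the median are therefore no support. Cd74, the invariant chain that guides class II molecules to the endosome, stood at 7556, 11161 and 5068 CPM in the positive arm and at 1664, 1114 and 624 in the negative arm. The arms did not overlap for Cd74. The fold was 6.99, a log2 difference of 2.81 (SE 0.27, edgeR adjusted p = 0.0216). Cd74 lost its call in 9 of 17 alternative fits, such as the fit with no replicate block (edgeR adjusted p = 0.123) and the fit without doublets (0.355), with log2 folds of 1.79 to 3.26 over the 17. Ciita, the coactivator of the class II genes, was at 267, 342 and 229.7 CPM against 75.0, 135 and 21.8, again without overlap. Its fold was 3.66 (log2 1.87, SE 0.27, edgeR adjusted p = 3.93e-05).

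The peptide-loading chain genes rose by less. H2-DMb1, a subunit of the molecule that exchanges peptides on class II, was at 165, 270.3 and 208 CPM against 92.8, 79.6 and 21.8, a log2 difference of 1.52 (SE 0.31, edgeR adjusted p = 0.00239). Its partner H2-DMa was at 512, 509 and 395 CPM against 299.96, 167 and 254, a log2 difference of 0.93 (SE 0.18, edgeR adjusted p = 0.00167). Ifi30, a thiol reductase of the antigen-processing endosome, had a log2 difference of 0.71 (SE 0.13, edgeR adjusted p = 0.00108). For these 3 genes the positive libraries all lay above the negative ones. The endosomal proteases Ctss (log2 -0.28) and Lgmn (0.33) did not pass.

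The chains of the class II molecule itself had the largest folds of the list and did not pass. H2-Aa was at 2330.45, 4738 and 1156 CPM in the positive arm against 418, 103 and 7.26, a fold of 14.1 (log2 3.82, SE 0.98, edgeR adjusted p = 0.399). H2-Ab1 was at 2222, 4094 and 1292 CPM against 399.95, 191 and 29.0 (log2 3.52, SE 0.71, edgeR adjusted p = 0.301). H2-Eb1 was at 1667, 3053 and 732 CPM against 121, 15.9 and 21.8 (log2 4.70, SE 0.70, edgeR adjusted p = 0.179). In all 3 genes the lowest positive library lay above the highest negative library. The call depended on the fit. DESeq2's Wald test gave adjusted p-values of 0.00422 for H2-Aa, 0.000205 for H2-Ab1 and 7.07e-05 for H2-Eb1, while H2-DMb1 (0.283) and H2-DMa (0.633) did not pass in it. Without replicate 1 H2-Aa passed in edgeR (adjusted p = 3.54e-12), and without replicate 2 or 3 it did not (adjusted p = 0.536 and 0.782). H2-Ab1 passed without replicate 1 or 3 (edgeR adjusted p = 1.08e-11 and 3.79e-08), and H2-Eb1 passed without replicate 1, 2 or 3 (5.54e-11, 0.00349 and 0.000373).

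**Figure D2:**
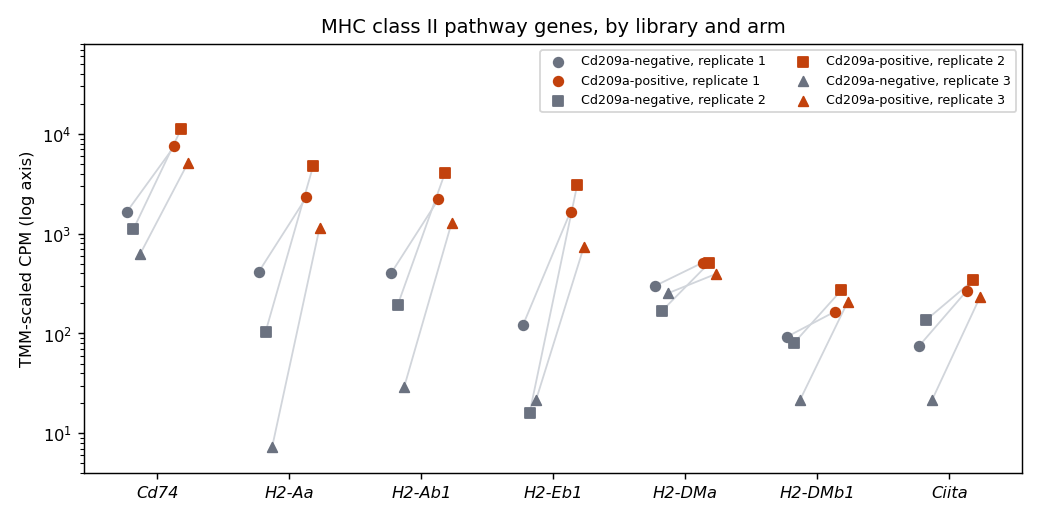
TMM-scaled CPM (log axis) of class II pathway genes in each library, grey for the Cd209a-negative arm and orange for the Cd209a-positive arm, with a line joining the arms of 1 library. In each gene the 3 orange points lie above the 3 grey points, and the grey points of H2-Aa spread from 7.26 to 418 CPM.

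The class II counts sat in part of the positive cells. H2-Aa reached 10 or more UMIs in 10 of 32 positive cells of replicate 1, 8 of 13 of replicate 2 and 5 of 17 of replicate 3, 23 of 62 in all, against 3 of 62 matched negatives. The 5 highest positive cells held 47.2% of the arm's 1421 H2-Aa UMIs. A single negative cell held 66.4% of the negative arm's 131. Any H2-Aa UMI was seen in 56.5% of positive cells, in 19.4% of matched negatives and in 8.07% of T-cell-gated cells, or 49.2%, 16.4% and 6.05% after thinning to 3000 UMIs. No T-gated cell reached 10. A Ciita UMI was present in 40 of 62 positive cells (64.5%), in 14 of 62 negatives (22.6%) and in 1.20% of T-gated cells. B cells express class II genes strongly. The B-cell genes Cd79a, Cd79b and Ms4a1 are limited by the gate and were at 0 in 45 of 62 positive cells (72.6%) and 43 of 62 negatives (69.4%). B-cell genes outside the gate were more frequent in the positive arm, where Ighm had 454 UMIs against 274, Spib 16 against 0 and Cd22 12 against 1, and their part in the class II values was not tested.

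Class II counts also moved with Flt3 and Zbtb46 inside the positive arm. Of the 28 positive cells with a Flt3 or Zbtb46 UMI, 17 reached 10 H2-Aa UMIs, and these 28 held 81.4% of the H2-Aa counts. Of the 34 positive cells without such a UMI, 6 reached 10 and 19 held none. Pooled H2-Aa (plain CPM) was 241 in matched negatives, 882 in positive cells without a Flt3 or Zbtb46 UMI, 4699 in those with 1, and 6460 in dendritic-gated cells. This order did not hold in every library. Matched negatives were at 420, 101 and 7.31 CPM and dendritic-gated cells at 7026, 3442 and 8497. By library, the positive cells without Flt3 or Zbtb46 were at 246, 2328 and 633 CPM for H2-Aa, and those with 1 were at 4037, 7555 and 2901. For Ciita these values were 148, 265 and 198 against 369, 423 and 339.5. The libraries of the 2 kinds of positive cell did not overlap for either gene, and no test was run between them. In replicate 1 the positive cells without such a UMI lay below the matched negatives for H2-Aa, and in replicate 2 the dendritic-gated cells lay below the positive cells with 1. The gate also held 61 Cd209a-negative cells with 1 such UMI, matched or not, with H2-Aa at 579 CPM pooled and 601, 71.2 and 1079 by library. In replicates 1 and 3 these lay above the positive cells without such a UMI, and in each library below those with 1. Their Ciita, at 110, 71.2 and 109 CPM, lay below both kinds of positive cell in each library.

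**Figure D3:**
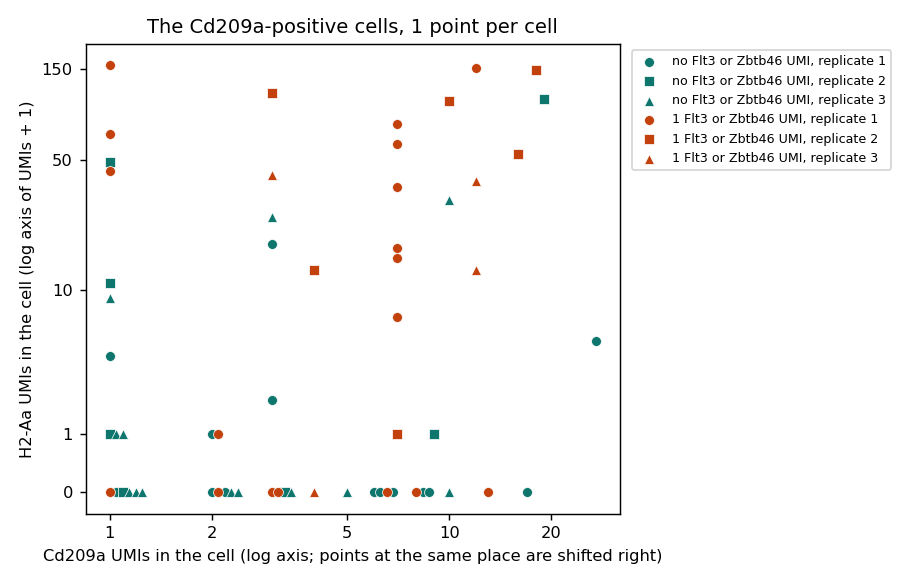
Each point is 1 of the 62 Cd209a-positive cells, with its Cd209a UMIs (horizontal, log axis) and H2-Aa UMIs (vertical, log axis of UMIs + 1). Color marks whether the cell held a Flt3 or Zbtb46 UMI and shape marks the replicate, and points at the same place are shifted to the right. Of the 23 cells at 10 or more H2-Aa UMIs, 17 held a Flt3 or Zbtb46 UMI.

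Most calls, those of class II genes among them, were lost where these cells were left out. With both arms limited to cells without Flt3 or Zbtb46, 34 pairs remained, and 1 gene was higher and 1 lower in edgeR, at 198 genes with an unadjusted p under 0.05. Ciita then had a log2 difference of 1.24 (SE 0.52, edgeR adjusted p = 0.762) and Cd74 one of 1.79 (SE 1.64, adjusted p = 0.926). This fit could test 46 of the 60 higher and 76 of the 78 lower genes, and all of these kept their direction. The part of the smaller arms in the lost calls was not tested. With negatives matched on the Flt3 and Zbtb46 count as well as on depth, 27 genes were higher and 39 lower. Ciita was then at a log2 difference of 1.48 (SE 0.31, edgeR adjusted p = 0.0147) and H2-DMb1 at 1.59 (SE 0.30, adjusted p = 0.00624), while Cd74 was at 2.55 (SE 0.87, adjusted p = 0.558). With cells under 20 Lyz2 UMIs left out of both arms, 26 genes were higher and 32 lower, and Cd74 (edgeR adjusted p = 0.000278) and Ciita (0.00067) passed.

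**Figure D4:**
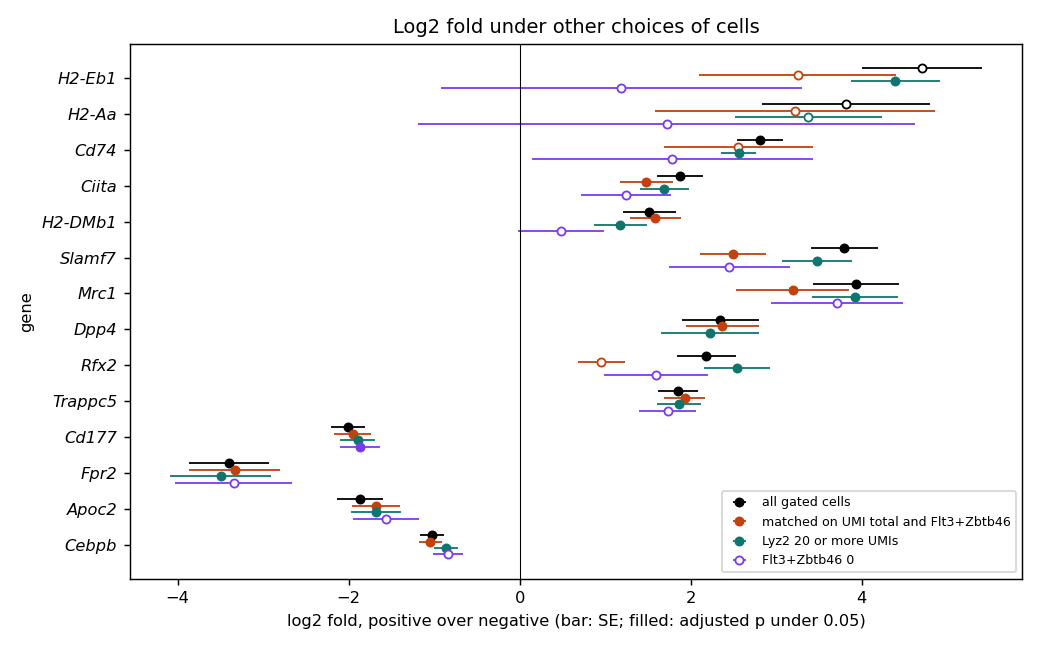
Log2 fold of Cd209a-positive over Cd209a-negative cells (horizontal, bars are SE) for 14 named genes in the matched comparison (all gated cells in the key) and under 3 other choices of cells, filled where edgeR's adjusted p is under 0.05. Cd177 is filled under all 4 choices, and no gene changes side of 0. Dpp4 was too low to be tested in cells without Flt3 or Zbtb46.

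Uptake receptors were among the largest differences. Of 47 C-type lectins and uptake receptors, 18 could be tested, 4 were higher (Clec9a, Mrc1, Axl and Clec10a) and 2 lower (Msr1 and Lrp1), at a median log2 fold of -0.23. The 4 higher genes had 0 to 22 UMIs in the negative arm. They could reach the filter on low counts through the positive arm, so their number is no support. Mrc1, the mannose receptor, was at 109, 302 and 101 CPM in the positive arm against 10.7, 0 and 14.5, with no overlap. The fold was 15.2 (log2 3.93, SE 0.50, edgeR adjusted p = 7.18e-06), and 21 positive cells held a Mrc1 UMI against 2 negatives. By library, Mrc1 was at 115, 209 and 132 CPM (plain) in positive cells without a Flt3 or Zbtb46 UMI and at 108, 405 and 0 in those with 1, an overlap. In the fit of cells without such a UMI it did not pass (log2 3.71, SE 0.78, edgeR adjusted p = 0.0632). Pooled Mrc1 was 52.4 CPM in dendritic-gated cells, and 1 UMI was seen in the 691 patrolling-gated cells. It was at 0 in the 16 cells with a single Cd209a UMI. Axl, a receptor for phosphatidylserine-bound Gas6, had a log2 difference of 1.67 (SE 0.37, edgeR adjusted p = 0.00695), although 1 negative library (95.5 CPM) lay above the lowest positive library (79.0 CPM). Axl was also at 0 in dendritic-gated cells. Clec10a, a galactose-binding lectin, had a log2 difference of 1.60 (SE 0.38, edgeR adjusted p = 0.0117). Clec9a, which senses dead cells and marks type 1 conventional dendritic cells, had 42 UMIs against 0, at least 14.0-fold higher against a floor of 3 UMIs over the arm, and 61.9% of them lay in the 9 cells low in Lyz2. Msr1, a scavenger receptor (log2 -1.16), and Lrp1, an uptake receptor for lipoproteins (-0.54), were lower.

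Of 20 costimulation and checkpoint genes only 4 could be tested, and Slamf7 and Cd40 were higher and none lower. These had 8 and 23 UMIs in the negative arm and could reach the filter through the positive arm, so their number is no support. Slamf7, a self-binding receptor of immune cells, was at 193, 254 and 208 CPM against 21.4, 7.96 and 7.26, with no overlap. This was a fold of 13.9 (log2 3.80, SE 0.39, edgeR adjusted p = 2.17e-07), and a Slamf7 UMI was present in 37 positive cells and 6 negatives. In cells without Flt3 or Zbtb46 its log2 fold was 2.45 (SE 0.70, edgeR adjusted p = 0.361). Cd40, the receptor for helper signals of T cells, had a log2 difference of 1.45 (SE 0.36, edgeR adjusted p = 0.0166). Cd80 and Cd86, the ligands of CD28, were too low to test, at 12 and 22 UMIs against 11 and 23. Cd93, a glycoprotein of myeloid and endothelial cells, had a log2 difference of 1.08 (SE 0.20, edgeR adjusted p = 0.000915).

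Of 40 dendritic-type genes, 13 could be tested, 6 were higher and 1 lower, at a median log2 fold of 1.03. Over all genes tested, 1.55% were higher and 2.02% lower. Dpp4, Kmo, Bcl11a and Clec10a had 10 to 20 UMIs in the negative arm, and Siglece, the lower gene, had 14 in the positive arm. They could reach the filter on low counts through the other arm, so these counts and the median are no support. Dpp4, a surface peptidase, was at 129.86, 151 and 64.6 CPM against 10.7, 47.8 and 21.8, without overlap (log2 2.35, SE 0.45, edgeR adjusted p = 0.00142). Kmo, an enzyme of the kynurenine pathway (log2 2.08), Bcl11a, a transcription factor of B cells and dendritic cells (1.80), Clec10a (1.60), Batf3 (1.22) and Irf4 (1.03), both transcription factors of dendritic-cell development, made up the rest of the higher genes. Siglece, an inhibitory sialic acid receptor of myeloid cells, was lower (log2 -1.80). Cd7, a glycoprotein of T cells and some dendritic cells, had 47 UMIs against 0, at least 15.6-fold higher against a floor of 3 UMIs, and 93.6% of them lay in the 9 cells low in Lyz2. With those cells left out, Cd7 and Clec9a were too low to test, whereas Slamf7 (edgeR adjusted p = 9.48e-06), Mrc1 (2.62e-05) and Dpp4 (0.041) passed.

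The other genes with the largest rises had varied roles. Trappc5, a subunit of the TRAPP vesicle-tethering complex, was at 344, 310.02 and 302 CPM in the positive arm against 75.0, 79.6 and 123, without overlap (log2 1.85, SE 0.24, edgeR adjusted p = 7.18e-06). Rfx2, a transcription factor known from ciliated cells, was at 84.2, 223 and 229.7 CPM against 28.6, 31.8 and 43.5 (log2 2.18, SE 0.35, edgeR adjusted p = 0.00017), and it did not pass where negatives were matched on Flt3 and Zbtb46 (log2 0.96, adjusted p = 0.111). Shtn1 (log2 2.01), which is known for neuronal polarity, and Runx2 (1.93), a transcription factor of bone and plasmacytoid dendritic cells, also rose. Tagln2, an actin-binding protein named here after its values were seen, was at 1186, 1296 and 1407 CPM against 504, 772 and 479 (log2 1.17, SE 0.15, edgeR adjusted p = 7.18e-06).

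The lower genes held several that classical monocytes share with neutrophils. Of 32 granulocyte-type monocyte genes, 14 could be tested, 6 were lower (among them Fpr2, Cd177, Padi4, Pglyrp1 and Hp) and none higher, at a median log2 fold of -0.38. Fpr2, Pglyrp1 and Padi4 had 7 to 26 UMIs in the positive arm and could reach the filter through the negative arm. The number of lower genes is therefore no support. Cd177, a neutrophil surface glycoprotein, was at 94.8, 207 and 158 CPM in the positive arm against 536, 549 and 631, with no overlap. It was 4.02-fold lower (log2 -2.01, SE 0.20, edgeR adjusted p = 1.35e-07), and it passed in all 17 alternative fits, with log2 folds between -2.43 and -1.70. Fpr2, a formyl peptide receptor, was at 10.5, 0 and 28.7 CPM against 139, 95.5 and 181 (log2 -3.40, SE 0.46, edgeR adjusted p = 2.11e-05). Padi4, which citrullinates histones in neutrophils, had a log2 fold of -1.78, Pglyrp1, a peptidoglycan-binding protein of granules, of -1.60, and Hp, haptoglobin, of -1.07. The calprotectin genes S100a8 (0.23) and S100a9 (0.44) did not pass. The 10 neutrophil markers summed to 498 to 4181 CPM in the positive arm and to 1037 to 3451 in the negative arm, an overlap, and of 5 tested only Padi4 was called.

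Among other genes of classical monocytes, more calls were lower than higher. Of 37, 25 could be tested, at a median log2 fold of -0.29. Of these, 9 were lower and 2 higher (Cd93 and S100a10, a partner of annexin A2 with a log2 fold of 0.65). The shares of all genes tested were 2.02% lower and 1.55% higher. Lpl and Msr1 had 37 and 52 UMIs in the positive arm and could reach the filter on low counts through the negative arm. The number of lower genes is therefore no support. Vcan, a matrix proteoglycan of classical monocytes, was at 56.2, 79.5 and 79.0 CPM against 171, 175 and 247, without overlap (log2 -1.49, SE 0.27, edgeR adjusted p = 0.000937). Lpl, lipoprotein lipase, had a log2 difference of -1.27 (SE 0.32, edgeR adjusted p = 0.0192), with 1 positive library (143.6 CPM) above the lowest negative library (128.6 CPM). Lyz2 was at 13379, 11360 and 13424 CPM against 16755, 19962 and 19229 (log2 -0.55, SE 0.08, edgeR adjusted p = 8.02e-05). Among genes outside this list, Apoc2, a lipoprotein cofactor of lipoprotein lipase (log2 -1.87), Ccdc125 (-2.26) and Sort1, a sorting receptor (-1.41), were lower. Tom1, an endosomal adaptor (-1.29), and Ms4a4a, a membrane protein of macrophages (-1.32), also outside the list, were lower as well.

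Genes of patrolling monocytes gave calls in both directions. Of 32, 14 could be tested, at a median log2 fold of -0.39. Of these, 4 were lower (Ceacam1, Gngt2, Cebpb and Nr4a1) and 1 higher (Spn), against 2.02% and 1.55% of all genes tested. Cebpb, a transcription factor needed by patrolling monocytes, was at 583, 477 and 495 CPM in the positive arm against 1128, 828 and 1234, without overlap (log2 -1.02, SE 0.14, edgeR adjusted p = 3.01e-05). Nr4a1 was at 291, 223 and 266 CPM against 561, 302 and 646 (log2 -0.94, SE 0.18, edgeR adjusted p = 0.00119). Spn, which encodes the sialoglycoprotein CD43, rose by a log2 difference of 0.79 (SE 0.19, edgeR adjusted p = 0.0127). The gate genes of patrolling cells were low in both arms, with summed levels of 231 to 257 CPM in the positive arm and 453 to 631 in the negative arm.

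Regulators, receptors and response genes gave the following counts, to be read against 3.57% of all genes called. Of 48 myeloid transcription factors, 35 could be tested, 2 were higher (Runx2 and Nfkb1, log2 0.55) and 3 lower (Cebpb, Maf at -1.26 and Nfil3 at -1.20). Runx2 had 15 UMIs in the negative arm, and Maf and Nfil3 had 31 and 28 in the positive arm. They could reach the filter on low counts through the other arm, so the number of these factors called is no support. Of 52 interferon-stimulated genes, 37 could be tested and 2 were lower, Slfn1 (-1.04) and Ifi204 (-0.82), and none higher. Of 22 growth factor and cytokine receptors tested 1 was lower, the TNF receptor Tnfrsf1b (-0.54), and of 20 inflammatory genes tested 1 was lower, the RNA sensor Tlr7 (-1.11). Nr4a1 was the 1 call among 15 immediate-early and heat shock genes tested. None of the 15 MHC class I and peptide-loading genes tested passed in edgeR, at a median log2 fold of 0.09, none was called by DESeq2's Wald test, and 2 were higher at an unadjusted p under 0.05. Of the 2 proliferation genes tested, 0 passed in edgeR or DESeq2 and 0 had an unadjusted p under 0.05.

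Markers of other cells were mostly too low to test. Among 14 B-cell markers only Ighm could be tested, and it was higher (log2 0.71, SE 0.14, edgeR adjusted p = 0.00256), with the list at 778 to 1005 CPM against 476 to 694. None of the markers of T cells, NK cells, platelets or basophils could be tested, and their sums stayed at or under 202 CPM in each library. Erythroid genes stood apart in replicate 2, at 26782 CPM in its positive arm and 15287 in its negative arm, against 93.2 to 891 in the other libraries. None of the 5 erythroid genes tested passed in edgeR or in DESeq2's Wald test, and 3 were higher at an unadjusted p under 0.05. The 1 plasmacytoid dendritic marker (Tcf4, 53 UMIs against 42) and the 1 tissue macrophage marker that could be tested did not pass. Among untested plasmacytoid markers, Upb1 had 23 UMIs against 1, Siglech 5 against 0 and Cd300c 2 against 0, and Ccr9, Cox6a2, Klk1 and Pacsin1 were at 0. The 8 plasmacytoid markers summed to 222, 109 and 50.6 CPM in the positive arm against 82.5, 85.7 and 65.7, an overlap. The part of these transcripts in the results was not tested.

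Against 691 patrolling-gated monocytes (495, 85 and 111 cells), in a shared edgeR fit of both arms and these cells, 883 of 6519 genes were higher (13.5%) and 815 lower (12.5%) in the Cd209a-positive cells. Of the 22 named genes that were higher than in the negatives and tested here, 19 were also higher than in patrolling cells, 2 were lower and 1 did not pass. Both comparisons share the positive arm. Without replicate 1 the counts were 426 higher and 456 lower. Ciita averaged 276 ± 56.3 CPM (SD, n = 3) against 38.3 in patrolling cells (log2 2.86, SE 0.23, edgeR adjusted p = 1.99e-15). H2-Aa averaged 2706 ± 1801 against 625 CPM (log2 2.05, SE 0.57, edgeR adjusted p = 0.0702). Of 25 named lower genes, 14 were also lower than in patrolling cells and 6 were higher, among them Cd177 (log2 1.91) and Vcan (log2 5.45). The dendritic-gated cells numbered 28, 7 and 3 in the libraries, too few for the fit, so their levels are a description.

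**Figure D5:**
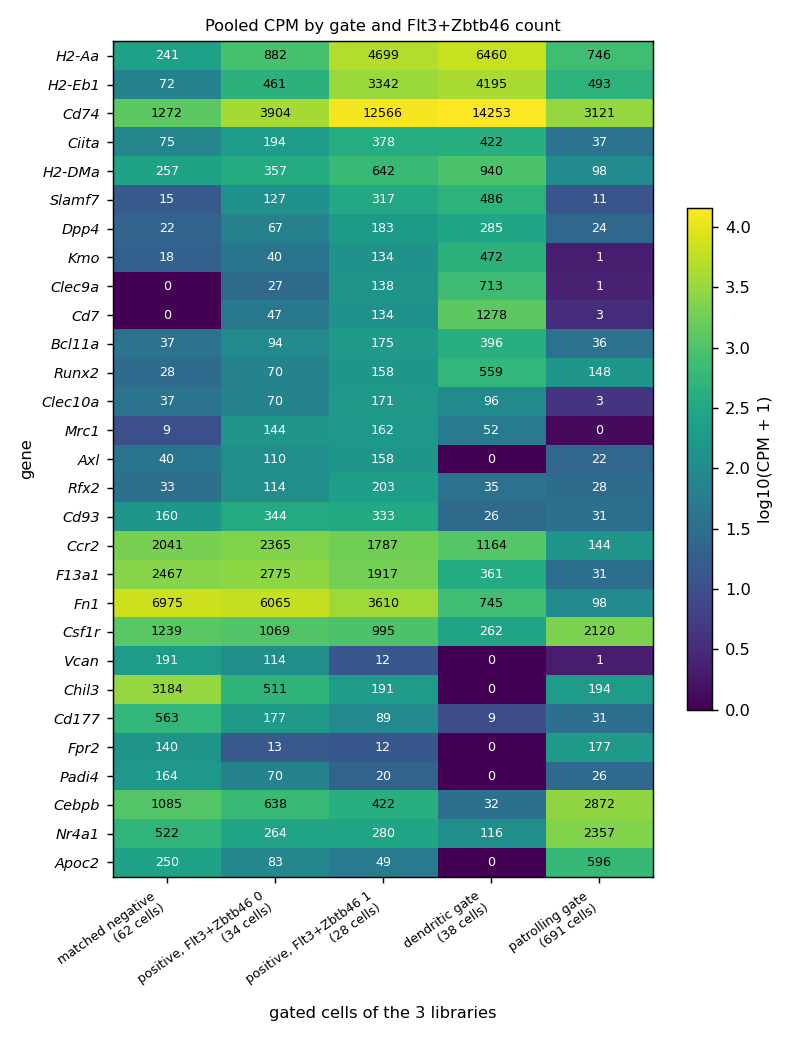
Pooled plain CPM (numbers in cells, color is log10 of CPM + 1) of 29 genes in matched Cd209a-negative cells, Cd209a-positive cells without and with a Flt3 or Zbtb46 UMI, dendritic-gated and patrolling-gated cells. H2-Aa goes from 241 to 882, 4699 and 6460 CPM over the first 4 columns when libraries are pooled (420 to 246 over the first step in replicate 1, and 7555 to 3442 over the last in replicate 2), whereas pooled Mrc1 is at 144 and 162 in the positive columns and at 52.4 in dendritic-gated cells.

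Pooled levels (plain CPM) of other genes across these gates were as follows. Slamf7 stood at 14.7 CPM in matched negatives, 127 and 317 in positive cells without and with a Flt3 or Zbtb46 UMI, and 486 in dendritic-gated cells, an order found in each library. Dpp4 was at 22.1, 66.8, 183 and 285 CPM, but in replicate 2 its matched negatives (46.8) lay above the positive cells without such a UMI (41.8). Rfx2 and Cd93 were at 114 and 344 CPM in positive cells without such a UMI and at 34.9 and 26.2 in dendritic-gated cells. F13a1 was at 2775 CPM in positive cells without and 1917 in those with such a UMI, against 361 in dendritic-gated and 30.5 in patrolling-gated cells. Chil3 was at 511 and 191 CPM in the positive cells and at 0 in dendritic-gated cells. Cd177 was at 177 and 89.3 CPM in the positive cells against 563 in the negatives and 8.73 in dendritic-gated cells.

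The number of Cd209a UMIs is the threshold of the comparison, and levels on either side of it were as follows. H2-Aa (plain CPM) was at 420, 101 and 7.31 in matched cells with no Cd209a UMI, at 5349, 1667 and 236 in the 16 cells with 1, and at 1716, 5819 and 1636 in the 46 cells with 2 or more. Slamf7 averaged 12.2, 132 and 258 CPM over these steps, and Cd177 averaged 571, 263 and 119. At the edge of the gate, 2 cells had a classical sum of 5, the lowest allowed, 1 of them Cd209a-positive. Just below it, 3 cells had a sum of 4, none of them positive, and 2 had a sum of 3, 1 of them positive. Just above it, 1 cell had a sum of 6 and was not positive, and 4 had a sum of 7, 3 of them positive.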

How the data were processed

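Blood leukocytes of untreated mice were measured in 3 libraries. The authors deposited 1 matrix of raw UMI counts per library, for 19059 genes, made with Cell Ranger 7.1.0 per the file headers. Neither genome build nor probe set version was given in the sources used here. Deposited barcode and feature files carry only names (unit: other). The members, gene lists and tests were chosen with earlier results of these data known.

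Cells were gated on raw counts. Each Cd209a-positive cell was assigned 1 Cd209a-negative cell of its library by the assignment with the smallest total difference in log UMI total. Counts were summed per library and arm (128521 to 278864 UMIs in the positive arm, 128283 to 278768 in the negative arm) and tested in edgeR 4.0.16 by its robust quasi-likelihood fit after filterByExpr and TMM scaling, with library as a block and Cd209a left out. Each library gave both arms, which is where the pairing comes from, and deviations of the arms from their means correlated at 0.19, 0.22 and 0.02 within libraries 1, 2 and 3. Gate genes were never counted as called. Each SE in edgeR is the log2 fold divided by the square root of its F. The fit was tested on simulated counts of 3903 genes, where it recovered 50.7% of genes changed 2-fold and 89.2% of those changed 4-fold, with 1 unchanged gene called. Every simulated gene had the same set spread, with no library effect and no gathering of counts in few cells. The data differ in this, so the simulation does not show how often the fit errs on them. Shares have exact Clopper-Pearson 95% intervals; these and floors cover counting error only. Scrublet in scanpy 1.11.5 called 6.06%, 2.30% and 2.08% of cells as doublets, among them 2 positive and 3 negative cells, which were kept except in an alternative.

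Lists held 15 outcome sets and 17 marker sets. Named genes are Cd209a, H2-Aa, H2-Ab1, H2-Eb1, Cd74 and Ciita; the up to 4 highest and 4 lowest by log2 fold of each outcome list among called genes with 1 direction over the 3 libraries and 20 CPM or more in either arm; and the 12 highest and 12 lowest of all called genes at 50 CPM or more, gate genes left out. Other genes were chosen after their values were seen. Gene positions are from GENCODE M21 (GRCm38). Alternatives covered scaling, filter, test, block, matching, doublets, gate limits and each library left out; 3 were added after seeing the data. A result that met the naming rule is not reported here.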

Additional observations from a re-analysis of the deposited data

How the results depend on the processing

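Counts of genes higher and lower in the Cd209a-positive cells were 60 and 78. They were 9 and 9 with DESeq2's Wald test, 145 and 165 against all negatives unmatched, 91 and 115 with up to 2 negatives per positive, and 37 and 54 with 2 or more Cd209a UMIs. They were 1 and 1 without Flt3 and Zbtb46 UMIs, 15 and 18 without B or T gene UMIs, and 35 and 42 at a classical sum of 10 or more. Leaving out a replicate gave 3 to 44 higher and 1 to 66 lower. In the alternatives chosen after seeing the data they were 27 and 39 with negatives matched on Flt3 and Zbtb46, and 26 and 32 with 20 or more Lyz2 UMIs. With no replicate block, that is without the pairing by library, 41 were higher and 51 lower. DESeq2 size factors (60 and 74), plain library totals (52 and 61), no filter (76 and 96) and removal of doublets (40 and 52) stayed within 1.5 times. Apart from the size of the arms, which differs by construction between choices of cells, the cause of these changes was not tested. The share of positive cells was 7.27% in cells thinned to 3000 UMIs. Against patrolling cells, leaving out a replicate gave 426 to 761 higher and 456 to 761 lower, and the fit of the 2 arms alone 872 and 823. No named gene changed direction in an alternative that tested it. The comparison with dendritic-gated cells and its alternative were not run, since 2 libraries held fewer than 10 of them. Arms of 13 to 32 cells limit every test here.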

Other observations

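Trappc5 lies near Cd209a, at chr8:3676299-3681255 on the plus strand, 62.1 kb from Cd209a at chr8:3743397-3748984 on the minus strand (GRCm38). The other protein-coding genes within 100 kb of Cd209a were therefore listed, after the Trappc5 values had been seen. Fcor, 71.0 kb away on the same side, had 29 UMIs in 22 positive cells against 3 UMIs in 2 matched negatives. It was under the filter on low counts, and without that filter its edgeR adjusted p was 0.00362. Between Trappc5 and Cd209a lie Fcer2a, with 1 UMI in each arm, and Clec4g, with 5 UMIs against 0. On the far side of Fcor, Mcemp1 had 207 UMIs against 208 (log2 -0.04) and Stxbp2 142 against 102 (log2 0.44), and neither passed. Retn was at 0 in both arms. Cd209e, on the other side of Cd209a, had 3 UMIs against 0. Trappc5 was present in 55 of 62 positive cells and 31 of 62 negatives, and its pooled level was 297 CPM in positive cells without and 366 in those with a Flt3 or Zbtb46 UMI, 428 in dendritic-gated cells (462, 451 and 99.96 by library), 77.6 in patrolling-gated cells and 88.2 in matched negatives. By Cd209a UMIs, it averaged 92.5, 225 and 362 CPM at 0, 1 and 2 or more. Why the levels of these neighbouring genes differ was not tested.

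In cells without a Flt3 or Zbtb46 UMI, the 2 genes past the threshold in edgeR were Cd177 and Hbb-bt, a beta-globin gene. Hbb-bt was at 7036 CPM in the positive arm of replicate 2 against 1222 in its negative arm, and at 24.2 and 93.3 against 16.4 and 56.8 in replicates 1 and 3 (log2 2.02, SE 0.31, adjusted p = 0.00805). In all gated cells Hbb-bt did not pass (log2 0.50, adjusted p = 0.17).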
